A study of Sus scrofa with 15 samples.

Results

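Integrins are the receptors with which an epithelial cell holds its basement membrane, and the 9 genes described here encode the chains of this contact. They are the integrin alpha chains ITGA2, ITGA3, ITGA5, ITGA6 and ITGAV, the beta chains ITGB1 and ITGB4, and the laminin chains LAMA3 and LAMB3. They were found by matching the NCBI Gene numbers of the deposited tables to pig gene symbols, and all 9 are among the 16804 genes listed in both tables. The cells were IPEC-J2, an untransformed pig line of jejunal epithelial origin, and each library was made from total RNA of cells that had received a lentiviral vector. The 15 libraries form 5 groups of 3. Lv133KD is the vector for knockdown of miR-133, Lv143KD is a knockdown vector that its label ties to miR-143 and the design text to miR-133, and Lv3NC is the control vector of both. OV143 is the vector for overexpression of miR-143 and Lv20NC is its control. All groups, controls included, are therefore vector-carrying cells of a single line, and the levels of the miRNAs were not analysed here.

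Each integrin is a pair of 1 alpha and 1 beta chain. The beta chain ITGB1 pairs with ITGA2 to bind collagen, with ITGA3 and ITGA6 to bind laminins, and with ITGA5 to bind fibronectin, while ITGAV pairs with several beta chains and binds vitronectin and other ligands that carry an RGD motif. The beta chain ITGB4 pairs with ITGA6 alone, and this receptor anchors keratin filaments in hemidesmosomes through plectin. Laminin-332 is a trimer that holds the LAMA3 and LAMB3 chains. It is a ligand of the ITGA3-ITGB1 and ITGA6-ITGB4 receptors, and in the intestine these contacts hold the epithelium on its basement membrane and take part in migration over wounds.

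Of the 9 members, ITGA3 had the largest log2 fold change, and whether it was called depended on the fit. It was lower in every OV143 library than in every Lv20NC library, at 295.0 ± 12.3 FPKM in OV143 and 459.7 ± 34.5 FPKM in Lv20NC (SD, n = 3 each), a separation downwards that 12.9% of all tested genes showed. It passed the test when libraries with the same replicate number were treated as pairs (limma adjusted p = 0.0205), but not when they were treated as unpaired (adjusted p = 0.124). No other member passed in OV143 in either of these fits over all 6 libraries, and none of the 9 passed in Lv133KD or Lv143KD. FPKM is a level corrected for gene length and for the total of the library. Fold changes are on the log2(FPKM + 1) scale, and calls were made at 0.05 on p-values adjusted over all genes of the table. In libraries of whole cultures, fewer cells that express a gene and less RNA per cell cannot be told apart.

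These counts stand against the following backgrounds. In OV143 against Lv20NC, 0% of 11506 tested genes were called without the pairing, where 1304 had an unadjusted p under 0.05, and 1.94% were called with it. In Lv133KD against Lv3NC, 0.0172% of 11645 genes were called without the pairing and 0.258% with it. In Lv143KD against Lv3NC the shares were 0.0172% and 0.172%. In Lv133KD against Lv143KD they were 0% and 0%, with 15 and 209 genes at an unadjusted p under 0.05. With 0.258% or fewer of all genes called in the knockdown comparisons, 0 of 9 members called is no departure from the background.

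FPKM sums lay between 486086 and 520630 in the knockdown table and between 518578 and 558042 in the overexpression table, apart from OV143 replicate 2 at 662022, and this library stood apart from the other 5 on the first principal component (a score of 39.6, against -15.3 to 1.06). FPKM keeps no read total, so depth is unknown. Of 10 epithelial markers, 9 averaged at least 1 FPKM over the libraries of each table. The summed level of the 10 was 2331.6 to 3419.5 FPKM in OV143, against 2461.2 to 2757.9 FPKM in Lv20NC. It was 1705.3 to 2853.0 FPKM over the 3 knockdown-table groups. CDX2, a transcription factor of intestinal identity, was near 0 (mean 0.0178 FPKM in the knockdown table), so the label of intestinal origin rests on general epithelial genes here. Fibroblast markers summed to 2.71 to 3.04 FPKM in OV143, against 2.28 to 2.79 FPKM in Lv20NC, and to 3.29 to 6.73 FPKM in the knockdown table. Leukocyte markers summed to 6.64 to 9.68 FPKM in OV143, against 6.28 to 6.71 FPKM in Lv20NC, and to 4.66 to 6.93 FPKM in the knockdown table, where PTPRC is listed at 0 and CD68 and CD14 averaged 2.12 and 1.59 FPKM. Endothelial markers summed to 5.31 to 6.86 FPKM in OV143, against 6.82 to 7.10 FPKM in Lv20NC, and to 11.07 to 13.63 FPKM in the knockdown table. Smooth muscle markers summed to 168.9 to 246.7 FPKM in OV143, against 172.4 to 236.5 FPKM in Lv20NC, and to 63.5 to 180.0 FPKM in the knockdown table. Nearly all of this sum was TAGLN (means of 199.8 FPKM in the overexpression and 113.6 FPKM in the knockdown table), while ACTA2, MYH11 and CNN1 were near 0. The part of these markers in the results was not tested.

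All 9 members were well above the filter of 1 FPKM in every library. ITGA3 had the highest level of the set in Lv133KD, Lv143KD, Lv3NC and Lv20NC, and averaged 392.8 FPKM over the knockdown table, above 98.5% of tested genes. ITGB1 came next, at 251.7 FPKM over the knockdown table and 304.0 FPKM over the overexpression table. In OV143 the order of these chains was different, with ITGB1 at 302.8 ± 77.0 FPKM and ITGA3 at 295.0 ± 12.3 FPKM (SD, n = 3), levels that overlapped between libraries. ITGA6 and ITGA2 followed in all 5 groups. ITGA6 lay above ITGA2 in all libraries of Lv133KD and Lv3NC, and the libraries of the neighbours overlapped in Lv143KD, OV143 and Lv20NC. ITGB4 and LAMB3 overlapped each other in all 5 groups. ITGA5 then stood below both in all groups, and above ITGAV in all groups. LAMA3 had the lowest level everywhere, at 25.8 FPKM over the knockdown table and 23.0 FPKM over the overexpression table, and was separated from ITGAV in Lv20NC alone. These are levels per length, so they may be compared between genes within a table.

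**Figure D1:**
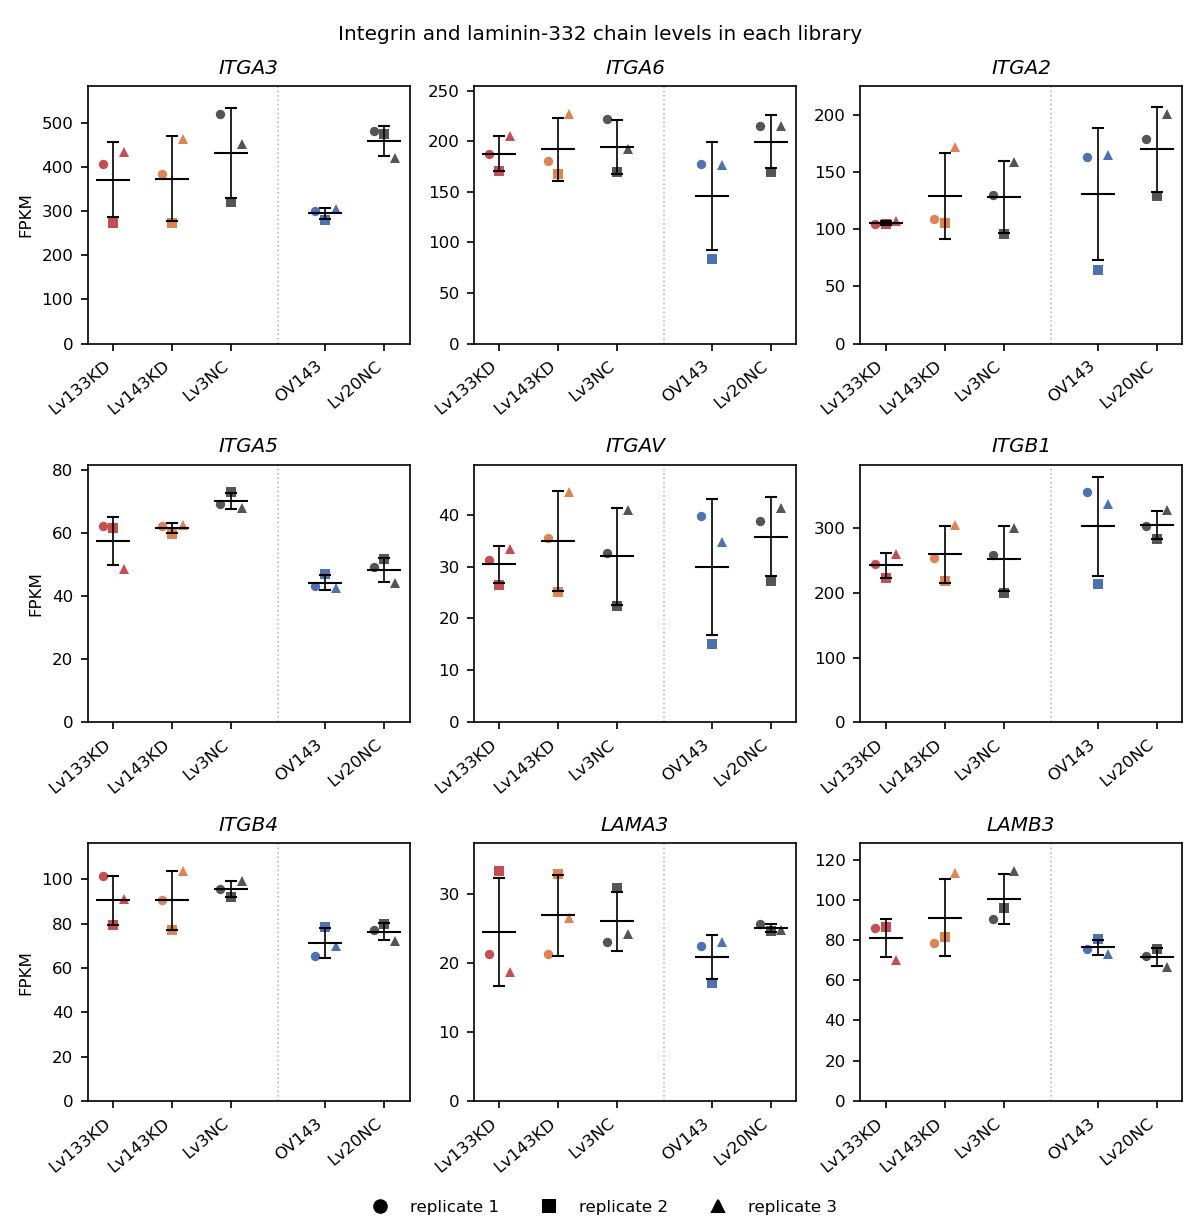
FPKM of the 9 chains in each library (vertical axes, linear from 0), by vector group, with the mean and SD of 3 libraries in black and the replicate number as the symbol. ITGA3 is lower in the 3 OV143 libraries (281.0 to 304.1 FPKM) than in the 3 Lv20NC libraries (420.1 to 483.2 FPKM), and OV143 replicate 2 is low in ITGA6, ITGA2, ITGAV and ITGB1.

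ITGA3 (NCBI Gene 100517053, chromosome 12 from 26234769 to 26269327 of Sscrofa11.1) encodes the alpha chain of the main laminin-332 receptor outside hemidesmosomes. Its values were 299.9, 281.0 and 304.1 FPKM in OV143 replicates 1 to 3, against 483.2, 475.9 and 420.1 FPKM in Lv20NC. The groups were far apart and the spread within OV143 was small. The log2 fold change was -0.64 (SE 0.11; 95% interval with the pairing -0.88 to -0.40), and the log2 differences of the same-numbered libraries were -0.69, -0.76 and -0.46. Without OV143 replicate 2, the library that stood apart, the fold change was -0.60 and passed without the pairing (adjusted p = 0.00460), in a fit that called 4.48% of all tested genes. With the pairing but without the libraries numbered 3, on 1 residual degree of freedom, it was -0.72 and did not pass (adjusted p = 0.0511), and leaving out any 1 of the other 5 libraries without the pairing gave an adjusted p from 0.251 to 0.804 at fold changes from -0.70 to -0.60. In the knockdown table ITGA3 was at 407.3, 274.3 and 434.5 FPKM in Lv133KD and 385.4, 273.7 and 463.9 FPKM in Lv143KD, against 521.6, 321.6 and 452.8 FPKM in Lv3NC. Replicate 2 was the lowest library in each of these groups, and the groups overlapped. The log2 fold changes were -0.21 in Lv133KD (adjusted p = 0.290 with the pairing) and -0.21 in Lv143KD (adjusted p = 0.856 with it), from comparisons that share the Lv3NC libraries.

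ITGA6 (NCBI Gene 100158200, chromosome 15 from 78504108 to 78591779) encodes the laminin receptor alpha chain that can join either beta chain. It was at 177.8, 84.1 and 176.3 FPKM in OV143, against 214.8, 169.9 and 214.7 FPKM in Lv20NC. OV143 replicate 2 was at less than any other library, each OV143 library was below the Lv20NC library of its number, and the groups overlapped. The log2 fold change was -0.52 (95% interval with the pairing -0.84 to -0.20; adjusted p = 0.0947 with it and 0.541 without), and -0.17 without OV143 replicate 2. With the pairing, on 1 residual degree of freedom, it passed at -0.64 without the libraries numbered 1 (adjusted p = 0.00391) and at -0.28 without those numbered 2 (adjusted p = 0.00141). These fits called 6.03% of all tested genes without the libraries numbered 1 and 12.8% without those numbered 2, against 1.94% with all libraries. In the knockdown table the means were 188.0 ± 17.4 FPKM in Lv133KD and 192.0 ± 31.3 FPKM in Lv143KD, against 194.8 ± 26.6 FPKM in Lv3NC (SD, n = 3 each). These means differed by less than their SDs.

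ITGA2 (NCBI Gene 397483, chromosome 16 from 32336240 to 32440311) encodes the collagen receptor alpha chain. It was at 163.1, 64.1 and 164.7 FPKM in OV143, against 179.4, 128.9 and 201.3 FPKM in Lv20NC. As for ITGA6, OV143 replicate 2 was the lowest library, each pair pointed down and the groups overlapped, with a log2 fold change of -0.47 (adjusted p = 0.135 with the pairing and 0.649 without). Without OV143 replicate 2 the fold change was -0.03, and in the paired fits without the libraries numbered 1 or 2 it passed, at -0.64 (adjusted p = 0.00328) and -0.21 (adjusted p = 0.0260), against 6.03% and 12.8% of all tested genes called in these fits. In Lv133KD the level was nearly constant, at 104.6, 104.6 and 107.5 FPKM, against 130.4, 96.0 and 159.1 FPKM in Lv3NC, while Lv143KD had 109.3, 105.9 and 172.2 FPKM. The mean of Lv133KD was below both others, and its libraries lay inside the range of Lv3NC. The log2 fold changes were -0.25 for Lv133KD against Lv3NC (adjusted p = 0.370 with the pairing), 0.00 for Lv143KD against Lv3NC, and -0.25 for Lv133KD against Lv143KD (95% interval with the pairing -0.56 to 0.05, adjusted p = 0.910).

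ITGA5 (NCBI Gene 100155091, chromosome 5 from 19587361 to 19610580) encodes the fibronectin receptor alpha chain and was not called in any comparison with or without the pairing. It was at 62.2, 61.7 and 48.7 FPKM in Lv133KD and 62.2, 59.8 and 62.7 FPKM in Lv143KD, against 69.3, 73.0 and 68.1 FPKM in Lv3NC. All 6 knockdown libraries were below all 3 controls, which both comparisons share. All libraries of the knockdown group were below all of Lv3NC for 3.33% of tested genes in Lv133KD and for 2.03% in Lv143KD. The log2 fold change was -0.29 in Lv133KD (95% interval with the pairing -0.49 to -0.09; adjusted p = 0.228 with it and 0.926 without) and -0.18 in Lv143KD (-0.39 to 0.02; 0.896 and 1.00). Without Lv133KD replicate 3 the first of these was -0.18. In OV143 the gene was at 43.2, 46.9 and 42.6 FPKM, against 49.4, 51.7 and 44.2 FPKM in Lv20NC, a log2 fold change of -0.13 (adjusted p = 0.488 with the pairing) between overlapping groups.

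ITGAV (NCBI Gene 397285, chromosome 15 from 91604666 to 91711843) had the lowest level of the alpha chains and varied most between libraries in the knockdown table, by 1.98-fold from the lowest to the highest. It was at 39.8, 15.1 and 34.8 FPKM in OV143, against 38.8, 27.2 and 41.4 FPKM in Lv20NC. The fold change of -0.34 (adjusted p = 0.239 with the pairing) turned to 0.08 without OV143 replicate 2, and passed at -0.53 in the paired fit without the libraries numbered 1 (adjusted p = 0.0161), the fit that called 6.03% of all tested genes. The means were 30.4 ± 3.57 FPKM in Lv133KD and 35.0 ± 9.61 FPKM in Lv143KD, against 32.0 ± 9.34 FPKM in Lv3NC (SD, n = 3 each), and the libraries of these groups overlapped.

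Of the beta chains, ITGB1 (NCBI Gene 397019, chromosome 10 from 56078393 to 56130608), the common partner of most alpha chains here, was at 355.7, 214.5 and 338.2 FPKM in OV143, against 303.1, 284.2 and 328.4 FPKM in Lv20NC. Of the OV143 libraries, 2 were above every control and replicate 2 was below every control. The fold change of -0.04 (adjusted p = 0.874 with the pairing) was 0.19 without OV143 replicate 2. ITGB4 (NCBI Gene 100521988, chromosome 12 from 5651292 to 5685601), the hemidesmosomal chain, was at 65.5, 78.7 and 69.8 FPKM in OV143, against 76.9, 80.0 and 72.4 FPKM in Lv20NC, and here OV143 replicate 2 was the highest of its group. Its log2 fold change was -0.10 (95% interval with the pairing -0.32 to 0.12, adjusted p = 0.588). In the knockdown table the fold changes of both beta chains lay between -0.09 and 0.04 against Lv3NC, and these groups overlapped.

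Of the laminin-332 chains, LAMA3 (NCBI Gene 100511642, chromosome 6 from 108548818 to 108805700) was at 22.5, 17.2 and 23.1 FPKM in OV143, against 25.7, 24.7 and 24.9 FPKM in Lv20NC. Every OV143 library was below every control, as for ITGA3, and such a separation downwards was found for 12.9% of tested genes in this comparison. The log2 fold change was -0.26 (95% interval with the pairing -0.51 to -0.02; adjusted p = 0.223 with it and 0.484 without), and -0.14 without OV143 replicate 2. LAMB3 (NCBI Gene 100736655, chromosome 9 from 133298009 to 133351162) was the member with a positive value in OV143, at 75.4, 80.5 and 73.3 FPKM, against 72.3, 75.5 and 66.8 FPKM in Lv20NC, a log2 fold change of 0.09 (adjusted p = 0.605 with the pairing).

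In the knockdown table LAMB3 was at 86.1, 86.6 and 70.3 FPKM in Lv133KD and 78.5, 81.5 and 113.1 FPKM in Lv143KD, against 90.6, 96.0 and 114.3 FPKM in Lv3NC. All 3 Lv133KD libraries were below all controls, as for 3.33% of tested genes, while Lv143KD overlapped them. The log2 fold change was -0.30 in Lv133KD (95% interval with the pairing -0.62 to 0.01; adjusted p = 0.315 with it and 0.926 without) and -0.15 in Lv143KD (0.999 with the pairing). With the pairing and without the libraries numbered 3 the value in Lv133KD was -0.11. LAMA3 was at 21.4, 33.4 and 18.7 FPKM in Lv133KD and 21.3, 33.0 and 26.5 FPKM in Lv143KD, against 23.1, 30.9 and 24.2 FPKM in Lv3NC, with the libraries numbered 2 the highest of each group.

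The signs of the 9 fold changes were counted beside those of all genes. In OV143, 8 of 9 members were lower than in Lv20NC, with a median log2 fold change of -0.26, against 54.2% of all tested genes and a median of -0.02. Without OV143 replicate 2 the member median was -0.14, and ITGAV and ITGB1 turned positive, at 0.08 and 0.19. In Lv133KD, 9 of 9 were lower than in Lv3NC (median -0.12), against 47.7% of all tested genes (median 0.01). In Lv143KD, 5 of 9 were lower (median -0.02), against 55.8% (median -0.01). In Lv133KD against Lv143KD, 8 of 9 were lower (median -0.10), against 41.8% (median 0.02), no member was separated between the groups, and such a separation downwards was found for 0.55% of tested genes. Some of the 9 genes varied together between libraries, so these counts are not 9 independent observations. In Lv133KD the values of ITGA6, LAMA3, ITGB4, ITGB1 and ITGAV changed sign when single libraries or numbers were left out, and those of ITGA2, ITGA3, ITGA5 and LAMB3 did not. With 1 library left out, the member median in Lv133KD against Lv143KD ran from -0.20 (without Lv143KD replicate 2) to 0.02 (without Lv143KD replicate 3). That median was also 0.02 with the pairing and without the libraries numbered 3.

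**Figure D2:**
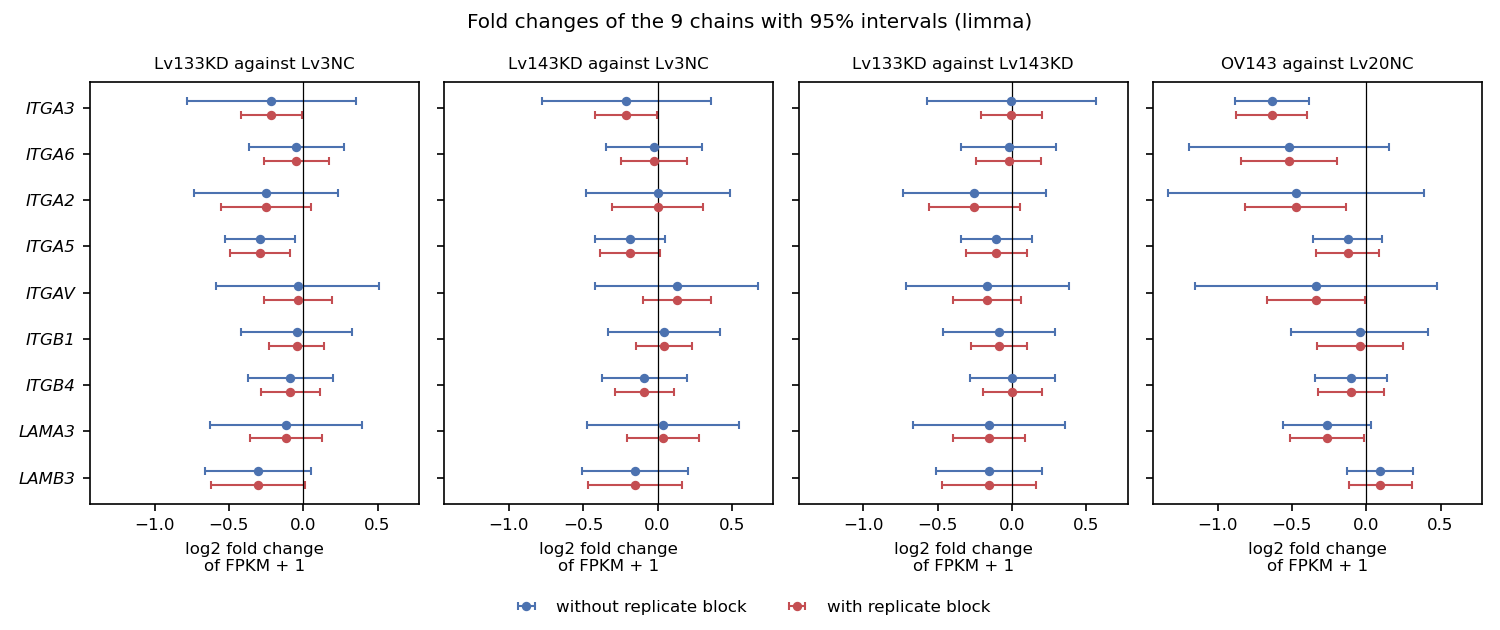
Log2 fold changes of FPKM + 1 (horizontal axes) of the 9 chains in the 4 comparisons, with 95% intervals from limma without (blue) and with (red) the replicate number as a block. The interval of ITGA3 in OV143 against Lv20NC is the one farthest from 0, from -0.88 to -0.40 with the block.

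Ratios within a library do not depend on how that library was scaled. The summed level of the 5 alpha chains over that of the 2 beta chains was 1.72 ± 0.05 in OV143 and 2.39 ± 0.13 in Lv20NC (SD, n = 3 each), with no overlap (1.68 to 1.77, against 2.30 to 2.54). In the knockdown table it was 2.26 ± 0.13 in Lv133KD and 2.25 ± 0.12 in Lv143KD, against 2.46 ± 0.26 in Lv3NC, with overlap. OV143 replicate 2 lay with its group in this ratio, although the levels of most chains in it did not. The ratio of ITGA6 to ITGB1 was likewise separated, at 0.50, 0.39 and 0.52 in OV143, against 0.71, 0.60 and 0.65 in Lv20NC. The ratio of ITGA3 to ITGB1 was 0.84, 1.31 and 0.90 in OV143, against 1.59, 1.67 and 1.28 in Lv20NC, and overlapped through OV143 replicate 2. These ratios were looked at with the values known, so they are given without a test, and a ratio shows unequal change of its parts, not which part changed.

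**Figure D3:**
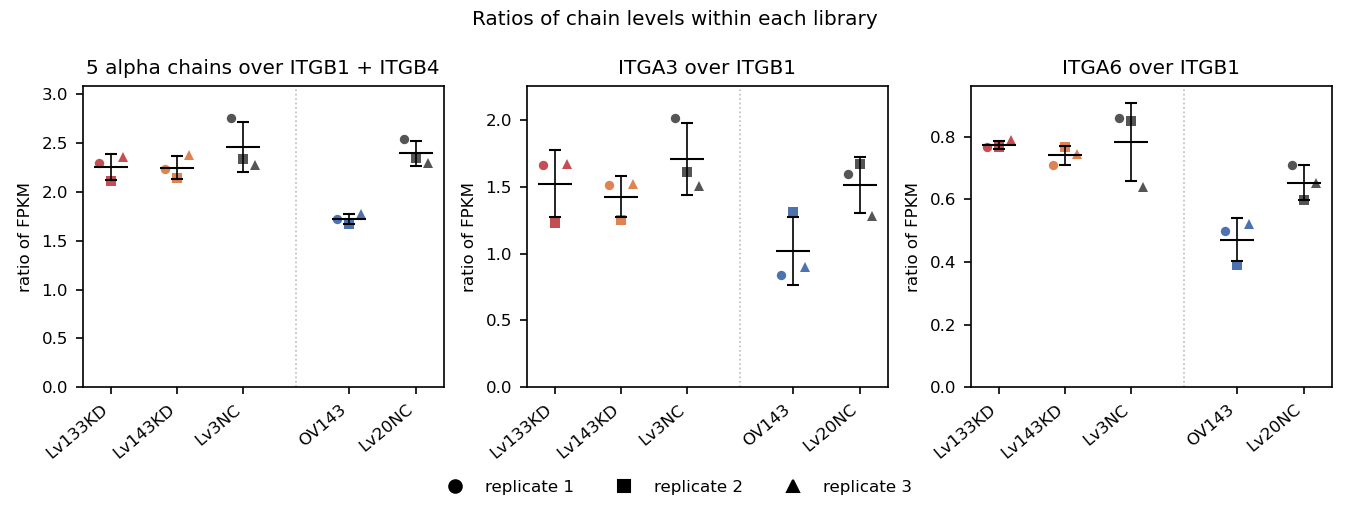
Ratios of FPKM within each library (vertical axes, linear from 0), by vector group, with the mean and SD of 3 libraries in black. The ratio of alpha to beta chains is 1.68 to 1.77 in the OV143 libraries and 2.30 to 2.54 in the Lv20NC libraries. The ratio of ITGA6 to ITGB1 is 0.39 to 0.52 in OV143 and 0.60 to 0.71 in Lv20NC.

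In the knockdown table the first principal component of all tested genes held 61.7% of the variance, and over its 9 libraries the correlation of its score with the members was 0.95 for ITGB1, 0.92 for ITGA2, 0.92 for ITGAV, 0.83 for ITGA3, 0.78 for ITGB4, 0.76 for ITGA6, 0.63 for LAMB3, 0.10 for ITGA5 and -0.46 for LAMA3. In the overexpression table it held 68.7% and was led by OV143 replicate 2. Over its 6 libraries the correlation was -0.99 for ITGA2, -0.99 for ITGA6, -0.98 for ITGAV, -0.92 for ITGB1, -0.92 for LAMA3, -0.50 for ITGA3, 0.22 for ITGA5, 0.48 for ITGB4 and 0.82 for LAMB3. The sign of a component is arbitrary, so signs may be compared within a table and not between the tables. ITGAV and ITGB1 varied together in the knockdown table (r = 0.99 and rho = 0.95 over 9 libraries, r = 0.97 without the 2 libraries farthest from the median of ITGAV). In the overexpression table the r of 0.95 for ITGAV and ITGB1 dropped to 0.69 over 5 libraries without OV143 replicate 2. Libraries within a group share their vector, and the values are descriptions.

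**Figure D4:**
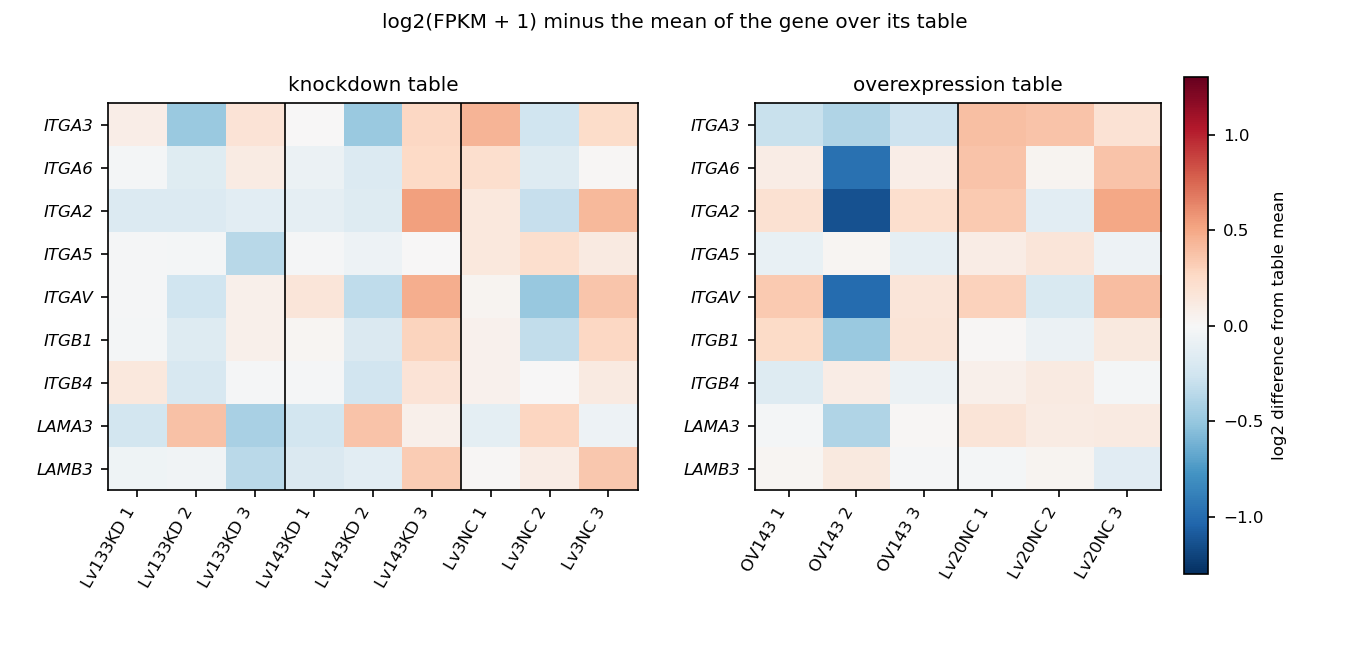
Difference of log2(FPKM + 1) from the mean of the gene over its table (colour, red higher and blue lower) for the 9 chains (rows) in each library (columns, lines between vector groups). The libraries numbered 2 of the knockdown table are low in ITGA3 and high in LAMA3, and OV143 replicate 2 is low in ITGA6, ITGA2, ITGAV and ITGB1.

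Genes with the most similar pattern were ranked by the smaller of the 2 Pearson correlations, over 9 knockdown-table and 6 overexpression-table libraries, among 8138 genes that averaged at least 5 FPKM in both tables. For ITGA3 they were ALS2CL (0.98 and 0.99), HHEX (0.98 and 0.98) and PLK3 (0.98 and 1.00). For ITGA6 they were MAP1B, EPB41 and the desmosomal cadherin DSG2 (0.96 and 1.00). For ITGB1 they were SPG11 (0.99 and 0.98), ERAP1 and GNG2, and SPG11 was also among those of ITGAV, with CLIP4. ATF6, PPP3CB and ATP2B4 were nearest to ITGA2, and PACS1, RBM38 and CUEDC1 to ITGB4. For LAMB3 they were FKBP10 (0.91 and 0.91), CTSH (0.92 and 0.90) and CTSB (0.94 and 0.90), and for LAMA3 they were ADSS (0.89 and 0.92), SERPINE2 (0.91 and 0.89) and B4GALT5 (0.87 and 0.97). ITGA5 had the weakest likeness, with ARID5A (0.89 and 0.86), PLEKHN1 (0.87 and 0.86) and ARPC1A (0.84 and 0.97). These correlations were not repeated without OV143 replicate 2, the library that led the first principal component of the overexpression table.

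Other genes of the adhesion system were taken from fixed lists. Of the other integrin chains, 5 of 18 listed in the knockdown table and 7 of 19 listed in the overexpression table could be tested, and none was called. ITGB5, a partner of ITGAV, was at 36.8 ± 1.08 FPKM in OV143 and 37.4 ± 1.44 FPKM in Lv20NC (SD, n = 3 each), and ITGB3, another, at 22.9 ± 9.46 FPKM in OV143 and 27.6 ± 3.25 FPKM in Lv20NC. None of 5 tested laminin chains outside the 9 members was called in any comparison. LAMA5, the alpha chain of laminin-511, had 46.5 ± 0.84 FPKM in OV143 and 58.5 ± 5.18 FPKM in Lv20NC, with a log2 fold change of -0.32 (adjusted p = 0.124 with the pairing). None of the hemidesmosome and integrin partners was called (8 tested in the knockdown table and 7 in the overexpression table), among them the tetraspanins CD9 and CD151, which associate with the laminin-binding integrins. CD151 had 104.5 ± 30.1 FPKM in OV143 and 95.1 ± 13.9 FPKM in Lv20NC. None of 28 tested activators and adaptors was called, such as filamin A (FLNA, 243.1 ± 2.39 FPKM in OV143 and 261.5 ± 15.7 FPKM in Lv20NC) and the actin crosslinker ACTN4.

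A ligand and a co-receptor of integrins were called in OV143 with the pairing, and not without it. SDC4, a syndecan that acts with integrins at focal adhesions, was at 438.8, 328.0 and 425.0 FPKM in OV143, against 730.2, 630.5 and 578.3 FPKM in Lv20NC. All OV143 libraries were below all controls, a separation that 12.9% of tested genes showed. The log2 fold change was -0.71 (SE 0.12, adjusted p = 0.0209 with the pairing and 0.202 without). CTGF, a matricellular ligand of integrins, was at 265.3, 152.9 and 277.2 FPKM in OV143, against 399.2, 356.3 and 390.8 FPKM in Lv20NC, with a log2 fold change of -0.77 (SE 0.14, adjusted p = 0.0277 with the pairing and 0.276 without). CTGF was the 1 of 18 tested matrix ligands, and SDC4 the 1 of 8 tested other matrix receptors, to pass in OV143 with the pairing, against the 1.94% of all genes given above. The medians of these lists were -0.12 and -0.02. None of either list was called in Lv133KD or Lv143KD.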

How the data were processed

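The values are FPKM as deposited, per the file headers, rounded by the authors to 2 decimals, in a table of 9 knockdown libraries and a table of 6 overexpression libraries that were normalised separately. The submitters' processing notes name the build Sscrofa11.1. No aligner, counting tool, annotation or strand use is given in the sources used here. Symbols and coordinates come from a RefSeq gene table of that build (symbols for 18618 of 19000 and 16949 of 17001 genes). Each table was fitted whole as log2(FPKM + 1), which understates changes of low genes, with limma 3.58.1 in R 4.3.3 (trended empirical Bayes variance, two-sided, Benjamini-Hochberg), over genes that reached 1 FPKM in 3 or more libraries. The step was tested on simulated data with a common spread for all genes and changes larger than those of the members. The simulation held no outlying library and no differences between replicate numbers. Tests were made within a table.

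Nothing in the labels shows that replicates are separate cultures. The p-values then reflect differences between these libraries only, and those may be technical. The planned test treats libraries as unpaired. Same-numbered libraries of different groups deviated together (r of 0.27 to 0.85 over 9 pairs and 0.23 to 0.72 over 3 pairs). Differently numbered ones had r of -0.87 to 0.38 over 18 pairs and -0.68 to 0.54 over 6 pairs, so the ranges overlapped. OV143 replicate 1 went with Lv20NC replicate 3 (0.54) more than with Lv20NC replicate 1 (0.23). A fit that blocks on the number stands beside the planned test, but the pairing is not certain. What a number marks is not stated. The steps between low FPKM values, seen in 3 to 16 genes per library, left relative depth undecided.

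Named were the 9 members, up to 4 called genes of each other list and comparison (otherwise the 2 with the highest mean), and the 3 genes most alike to each member. A few genes falling under it are not reported here. CDX2 and PTPRC are named as markers. The members and lists were chosen with earlier results of these data known.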

Additional observations from a re-analysis of the deposited data

How the results depend on the processing

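With the replicate number as a block, ITGA3 was called in OV143, so the members called there numbered 1, as with the block and median scaling, against 0 without the block. Library weights gave 2 (ITGA3, and ITGA5 at an adjusted p of 0.0492), in a fit that called 2650 of all 11506 tested genes. Beside that share, 2 of 9 members called is no departure from the background. Leaving out 1 library or number gave 0 to 4, the 4 being ITGA2, ITGA3, ITGA6 and ITGAV. These 4 passed in the paired fit that dropped number 1, where 6.03% of 11335 tested genes were called. When all libraries were kept, the pairing changed the call of no member but ITGA3. Genes called in OV143 numbered 223 with the block, 243 with the block and median scaling, 2650 with library weights and 0 to 1454 with libraries left out. In Lv133KD 2 genes were called, and 30 with the block, 42 with the block and scaling, 205 with weights, 1 without a filter, 0 with median scaling, with a constant prior variance and with only the 6 libraries compared, and 0 to 72 with libraries left out. In Lv143KD 2 were called, and 20 with the block, 29 with the block and scaling, 70 with weights, 1 without a filter, 0 with a constant prior variance and with only the 6 libraries, and 0 to 60 with libraries left out. Fits with the block that leave out a number were chosen after seeing the data.

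Of the members called in OV143 in any fit, ITGA2, ITGA3, ITGA5 and ITGA6 kept their sign in every fit, and ITGAV did not. With library weights the log2 fold changes of LAMA3, ITGB1 and ITGA2 in Lv143KD were -0.053, -0.011 and -0.19, and that of ITGB1 in OV143 was 0.18. With median scaling, with and without the block, ITGB4 was at -0.025 in Lv133KD against Lv143KD. With libraries left out, Lv133KD gave -0.14 to 0.054 for ITGA6, -0.35 to 0.047 for LAMA3, -0.17 to 0.0050 for ITGB4, -0.21 to 0.090 for ITGB1 and -0.27 to 0.16 for ITGAV. Lv143KD gave -0.16 to 0.11 for ITGA6, -0.12 to 0.19 for LAMA3, -0.19 to 0.020 for ITGB4, -0.12 to 0.18 for ITGB1, -0.10 to 0.34 for ITGAV and -0.22 to 0.17 for ITGA2. OV143 gave -0.59 to 0.079 for ITGAV and -0.18 to 0.19 for ITGB1, and Lv133KD against Lv143KD gave -0.11 to 0.11 for ITGB4. The cause of these shifts was not tested. Depth is unknown, and 3 libraries a group limit what can be called.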

Other observations

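Several integrin chains outside the 9 members were near 0. The chains of leukocyte integrins ITGB2 and ITGAM averaged 0.44 and 0.0633 FPKM in OV143, 0.48 and 0.0533 FPKM in Lv20NC, 0.227 and 0.187 FPKM in Lv133KD, 0.33 and 0.187 FPKM in Lv143KD, and 0.343 and 0.273 FPKM in Lv3NC. ITGB6, a partner of ITGAV in epithelia, averaged 7.44 FPKM in OV143 and 9.34 FPKM in Lv20NC, and 2.09 FPKM in Lv133KD, 2.31 FPKM in Lv143KD and 1.76 FPKM in Lv3NC. The basal keratin KRT5 averaged 0.133 FPKM in OV143 and 0.42 FPKM in Lv20NC, and 3.88 FPKM in Lv133KD, 3.31 FPKM in Lv143KD and 3.71 FPKM in Lv3NC. COL7A1, the anchoring fibril collagen that laminin-332 binds in skin, averaged 0.0367 FPKM in both OV143 and Lv20NC, and 0.05 FPKM in Lv133KD, 0.0333 FPKM in Lv143KD and 0.0433 FPKM in Lv3NC. COL17A1, the transmembrane collagen of hemidesmosomes, averaged 82.6 FPKM in OV143 and 95.9 FPKM in Lv20NC, and 137.4 FPKM in Lv133KD, 152.6 FPKM in Lv143KD and 161.2 FPKM in Lv3NC. These genes were chosen after their values were seen. The knockdown and overexpression tables were normalised separately, and differences in level between them were not tested.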
